A study of Mus musculus with 8 samples.

Results

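Genes that halt cell division or are textbook targets of the transcription factor p53 were followed through the cells of mouse islets exposed to inflammatory cytokines: Cdkn1a, Mdm2, Gadd45a, Gadd45b, Gadd45g, Btg1, Btg2, Ccng1, Sesn1 and Trp53inp1. They were taken by symbol from a list and are 10 of the 30406 gene IDs listed in every library. The list was drawn up with results of these data known, and the measured value it was selected on is the change of Btg1, which moved in opposite directions in β-cells and in the other endocrine cells on cytokine exposure. The change between cytokine-treated and untreated endocrine cells is therefore given as a description, with no test. Tests are kept for NMMA added to cytokines, for NMMA alone, and for macrophages and endothelial cells. These tests share libraries with the contrast behind the list. Values of Btg1 in endocrine cells are therefore descriptions, also where it is counted among genes that passed.

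Islets came from male C57BL/6 mice of 12 to 16 weeks of age. In each of 2 replicates the islets of 10 mice were pooled and divided over 4 conditions for 18 h, so that a replicate is 1 pool of mice exposed ex vivo. Islets were left untreated, were exposed to IL-1β (10 U/mL) with IFN-γ (150 U/mL), to these cytokines plus 2 mM NMMA, or to NMMA (2 mM) on its own. NMMA inhibits nitric oxide synthase, so the cytokine conditions with and without it differ in whether the cytokine-exposed islet can make nitric oxide. Each of the 8 libraries holds the RNA of single cells captured in droplets, in which each molecule was tagged once and counted by its tag (unique molecular identifier, UMI), read from the 3′ end.

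p53 is held low in unstressed cells by Mdm2, a ubiquitin ligase that marks it for destruction and whose own gene p53 activates. DNA damage, to which nitric oxide can lead in β-cells, stabilizes p53, and its targets then slow the cell cycle, aid repair or favour death. Several of the 10 genes also answer to other signals: Gadd45b is a known target of NF-κB, which IL-1β activates, and Btg2 behaves as an immediate early gene in many cells. Islet endocrine cells of adult mice divide rarely, and many growth arrest proteins have further roles in stress signalling.

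All 10 are protein-coding genes, and their IDs match GENCODE M21 (GRCm38, the build called mm10). Cdkn1a lies at chr17:29090976-29100727 on the plus strand, Mdm2 at chr10:117688875-117710758 on the minus strand, and Ccng1 at chr11:40748552-40755311 on the minus strand. Sesn1 (chr10:41809935-41908424) and Trp53inp1 (chr4:11156431-11174379) are on the plus strand. The Gadd45 genes lie on separate chromosomes, Gadd45a at chr6:67035096-67037457 (minus), Gadd45b at chr10:80930073-80932204 (plus) and Gadd45g at chr13:51846678-51848468 (plus). Btg1 is at chr10:96617006-96622809 on the plus strand and Btg2 at chr1:134075170-134079120 on the minus strand.

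RefSeq promoter windows (GRCm38.p6, 250 bases before to 50 bases after a start) were found for 9 of the 10 genes, with 11 windows in all since Cdkn1a and Sesn1 have 2 starts each. Both strands were searched for the p53 half-site, of which p53 binds 2 close copies, for the TATA box (letters TATAAA) and for the cAMP response element (TGACGTCA). No match of these motifs overlapped another. The p53 half-site was found in 5 of the 11 windows, against 8.36% of 32851 windows of the same length, and the TATA box in 3 of 11 against 13.6%. A cAMP response element stood in 1 of 11 against 1.79%, in Btg2 from 166 bases before the start. Such matches describe letters in a short window and do not show binding, and a half-site is less than the whole p53 element. Printed below are the 5 windows with a p53 half-site and the Btg1 window, whose gene the list was built around, 5′ to 3′ on the strand of the gene with the matched motif in capitals (p53 half-site, and TATA box in Btg1).
Cdkn1a, chr17:29090729-29091028, plus strand: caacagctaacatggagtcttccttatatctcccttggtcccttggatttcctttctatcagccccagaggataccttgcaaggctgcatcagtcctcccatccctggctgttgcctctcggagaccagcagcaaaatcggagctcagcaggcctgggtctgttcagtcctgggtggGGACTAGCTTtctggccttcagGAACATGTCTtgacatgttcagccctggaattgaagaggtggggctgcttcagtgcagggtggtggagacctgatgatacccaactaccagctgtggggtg
Mdm2, chr10:117710709-117711008, minus strand: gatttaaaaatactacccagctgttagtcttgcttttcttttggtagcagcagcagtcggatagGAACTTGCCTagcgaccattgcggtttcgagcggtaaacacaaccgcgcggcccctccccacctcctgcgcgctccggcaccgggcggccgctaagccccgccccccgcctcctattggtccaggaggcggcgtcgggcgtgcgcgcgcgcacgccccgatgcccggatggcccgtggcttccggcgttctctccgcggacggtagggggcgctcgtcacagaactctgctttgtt
Gadd45a, chr6:67037358-67037657, minus strand: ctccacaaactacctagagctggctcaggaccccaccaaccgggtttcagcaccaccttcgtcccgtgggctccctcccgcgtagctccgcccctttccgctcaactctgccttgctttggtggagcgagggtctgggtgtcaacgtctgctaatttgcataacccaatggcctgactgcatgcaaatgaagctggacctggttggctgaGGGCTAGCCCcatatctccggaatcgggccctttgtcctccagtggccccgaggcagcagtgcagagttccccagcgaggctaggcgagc
Ccng1, chr11:40755237-40755536, minus strand: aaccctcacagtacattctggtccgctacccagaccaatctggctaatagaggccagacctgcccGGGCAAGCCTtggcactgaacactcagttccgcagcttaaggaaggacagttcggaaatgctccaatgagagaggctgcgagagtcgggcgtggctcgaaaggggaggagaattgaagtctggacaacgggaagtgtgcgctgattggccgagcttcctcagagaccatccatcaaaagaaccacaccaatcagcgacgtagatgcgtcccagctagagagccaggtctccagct
Sesn1, chr10:41887189-41887488, plus strand: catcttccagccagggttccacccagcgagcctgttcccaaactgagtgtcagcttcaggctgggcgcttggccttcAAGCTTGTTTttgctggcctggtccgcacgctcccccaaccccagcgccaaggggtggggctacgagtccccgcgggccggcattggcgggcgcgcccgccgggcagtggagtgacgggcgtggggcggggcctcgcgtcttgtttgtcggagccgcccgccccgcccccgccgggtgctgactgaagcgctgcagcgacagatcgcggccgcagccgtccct
Btg1, chr10:96616751-96617050, plus strand: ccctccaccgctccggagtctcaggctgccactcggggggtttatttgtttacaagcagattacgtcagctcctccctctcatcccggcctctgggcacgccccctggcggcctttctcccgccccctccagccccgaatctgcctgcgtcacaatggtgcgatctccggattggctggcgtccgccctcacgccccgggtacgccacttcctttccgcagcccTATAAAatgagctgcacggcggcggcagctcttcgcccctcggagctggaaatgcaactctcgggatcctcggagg

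The printed Cdkn1a window belongs to its upstream start and holds 2 half-sites, starting 73 and 51 bases before that start. The window of its downstream start holds no match. The half-site of Gadd45a starts 40 bases before the RefSeq start, those of Sesn1, Ccng1 and Mdm2 at 173, 185 and 186 bases. In GENCODE the Gadd45a window also overlaps E230016M11Rik. The Sesn1 window belongs to its downstream start, inside the gene. The TATA box of Btg1 starts 26 bases before the start, that of Gadd45g 27 and that of Gadd45b 46.

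**Figure D1:**
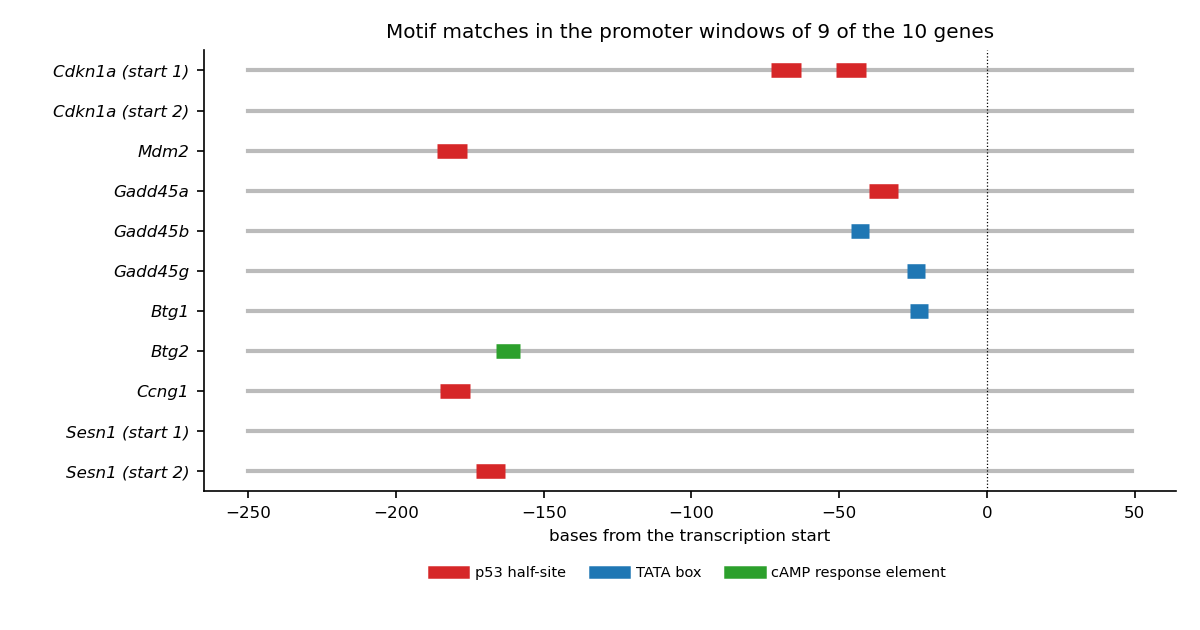
Map of motif matches in the 11 promoter windows of 9 genes, with the distance from the transcription start in bases on the horizontal axis and 1 window per row. Red marks show p53 half-sites, which occur in 5 windows, blue marks the TATA box of Gadd45b, Gadd45g and Btg1, and the green mark the cAMP response element of Btg2.

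The matrices held 17426 barcodes and 26549922 to 50731370 UMIs per library, and 10876 barcodes passed the limits on detected genes and mitochondrial UMIs. Any pair of libraries shared 0 to 2 barcodes. Clusters were named from marker genes and are called β-cells, α-cells and so on for short, but they are β-like and α-like clusters. There were 6280 β-cells (451 to 1609 per library), 634 α-cells (45 to 100), 332 δ-cells (11 to 84, with 11 in each cytokine library), 325 macrophages (28 to 72) and 284 endothelial cells (14 to 52). The 1108 non-β endocrine cells join the α- and δ-cells with 142 PP-cells. Subclusters called δ-cells scored higher for PP markers (0.66 to 0.95) than for δ-cell markers (0.52 to 0.80), and were named by their leading gene, Sst. A further 2506 cells were left unnamed. Cells with and without cytokines lay for the most part in different clusters of a class, while untreated and NMMA cells shared clusters, and several β-, α- and δ-cell clusters held mainly 1 replicate. Cells with cytokines and with cytokines and NMMA lay mainly in different clusters in β- and α-cells but shared clusters in δ-cells, macrophages and endothelial cells. In replicate 1, for example, untreated β-cells lay mainly in a cluster led by Mafa, cytokine β-cells in one led by Gbp2, and β-cells with cytokines and NMMA in one led by Iigp1. Nos2, the inducible nitric oxide synthase, checked the labels: its level in β-cells was 193 and 161 CPM with cytokines and 460 and 467 CPM with cytokines and NMMA, against at most 0.0523 CPM in the libraries without cytokines. UMIs were summed over the cells of a class in each library, and a level is given in counts of the gene scaled to a fixed total of UMIs in that sum (CPM). In such sums, a gene used by fewer cells and a gene used less per cell cannot be told apart.

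In β-cells, 7 of the 10 genes were higher with cytokines than untreated, in both replicates and with no overlap of the libraries, as were 36.7% of 12766 genes. Btg1 and Btg2 were lower in both, as were also 36.7% of genes, and Sesn1 overlapped. No test was made, because the list rests on this contrast. Gadd45b, a stress protein that acts on MAP kinase signalling, stood at 5.71 and 13.0 CPM in untreated β-cells (replicates 1 and 2) and at 149 and 125 CPM with cytokines, a log2 difference of 3.90 ± 0.37 (SE, here and below). Trp53inp1, a stress protein that promotes the phosphorylation of p53, stood at 18.98 and 23.5 CPM untreated and at 92.7 and 85.0 CPM with cytokines, a log2 difference of 2.07 ± 0.18. Both cytokine libraries lay far above both untreated ones for these genes.

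Gadd45g was at 68.6 and 68.4 CPM untreated and at 242 and 151 CPM with cytokines (1.52 ± 0.22). Its relative Gadd45a was at 27.3 and 36.6 against 58.3 and 57.2 CPM (0.86 ± 0.19). Cdkn1a encodes p21, the inhibitor of cyclin-dependent kinases through which p53 stops the cell cycle. Its level was 26.1 and 42.1 CPM untreated and 72.6 and 82.3 CPM with cytokines, a log2 difference of 1.19 ± 0.21. Mdm2 was at 35.9 and 36.1 against 69.2 and 61.2 CPM (0.86 ± 0.12). Ccng1, which encodes the p53 target cyclin G1, was at 37.1 and 47.1 against 77.8 and 66.5 CPM (0.78 ± 0.15). Each of these had both cytokine libraries above both untreated ones.

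Btg1 and Btg2 encode antiproliferative proteins that recruit a complex removing poly(A) tails from mRNA. Btg1 was at 100.5 and 89.1 CPM in untreated β-cells and at 49.1 and 66.1 CPM with cytokines, so both cytokine libraries were the lower ones (−0.72 ± 0.16). Btg2 went from 156 and 133 CPM to 73.8 and 70.5 CPM (−1.005 ± 0.23). Sesn1, whose product restrains the growth kinase mTORC1, was at 8.19 and 6.99 CPM untreated and 6.26 and 7.07 CPM with cytokines, with overlapping libraries. With an untreated Btg1 level near that of β-cells, α-cells showed the opposite: 79.98 and 54.99 CPM untreated and 204 and 193 CPM with cytokines, a log2 difference of 1.56 ± 0.22. In δ-cells Btg1 was at 118 and 81.1 CPM untreated and 199 and 116 CPM with cytokines, where replicate 2 with cytokines lay below replicate 1 untreated.

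**Figure D2:**
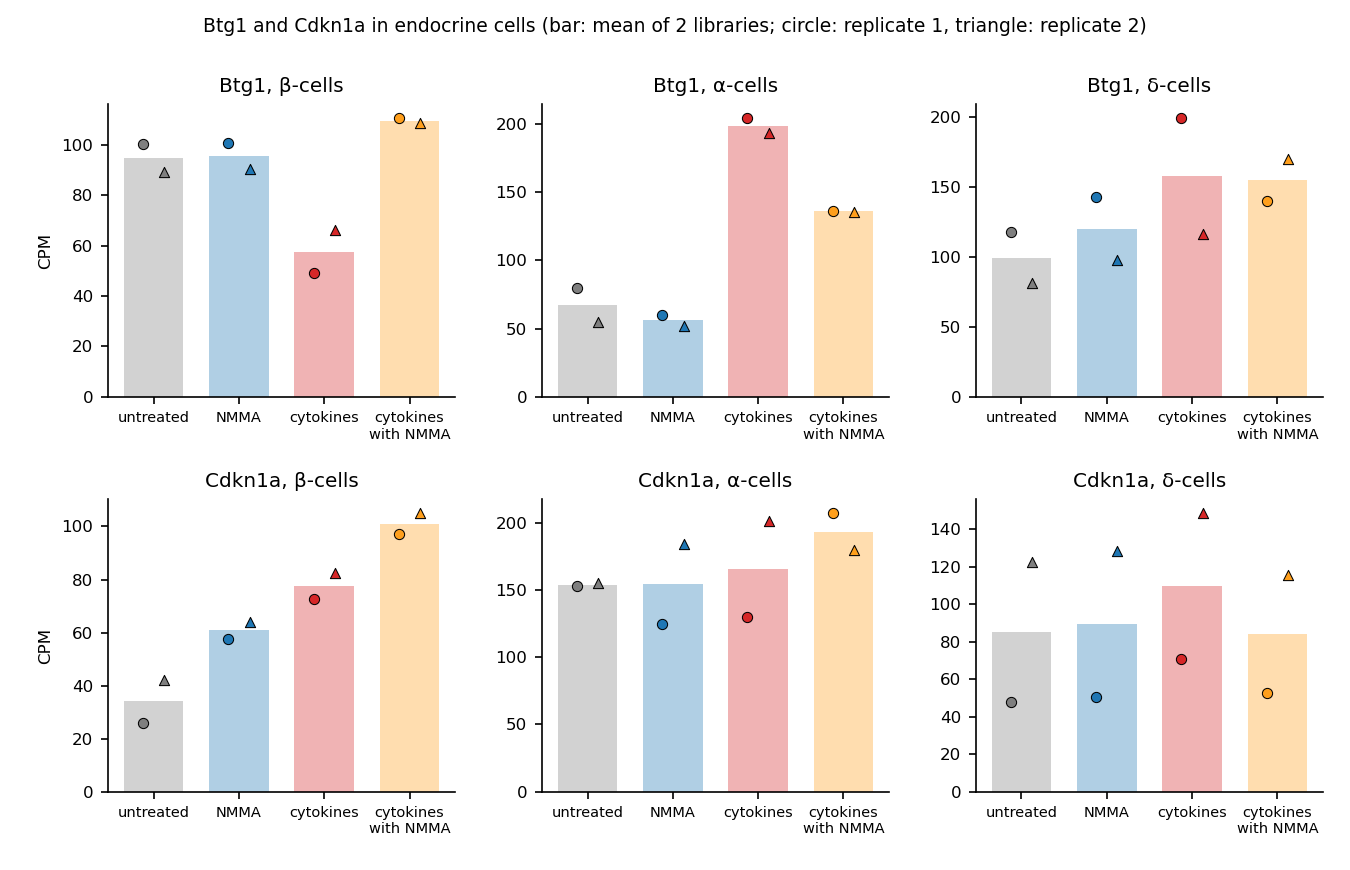
Btg1 (top) and Cdkn1a (bottom) in β-, α- and δ-cells, with CPM on a linear vertical axis of its own scale in each panel and the 4 conditions on the horizontal axis. Bars give the mean of 2 libraries, circles replicate 1 and triangles replicate 2. Btg1 is lowest with cytokines in β-cells and highest with cytokines in α-cells, and Cdkn1a is lowest in untreated β-cells.

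In α-cells the largest difference between cytokines and untreated was again that of Gadd45b, at 28.1 and 31.5 CPM untreated and 975 and 439 CPM with cytokines (4.55 ± 0.41). Btg2 and Sesn1 lay below 0 in β-, α- and δ-cells, and did so by DESeq2 and on scaling to total UMIs. Cdkn1a was close to level in α-cells, at 153 and 155 CPM untreated and 130.2 and 201 CPM with cytokines (0.12 ± 0.24), and on scaling to total UMIs its sign turned. Mdm2 in δ-cells, near 0 at −0.03 ± 0.38, also turned with the scaling. All cytokine α-cells of replicate 1 and 55 of 70 in replicate 2 were in one subcluster led by Gcg, Rbp4, Hspa1a and Gadd45b, among others. Markers of β-cells summed to 8903 to 11277 CPM in α-cells without cytokines and to 27018 to 57100 CPM with them. Among the non-β endocrine cells clustered again, subclusters of 184 and 159 cells scored highest for β-cell markers and were left unnamed. In each, 1 cell came from a library of cytokines with NMMA, and the rest were untreated or NMMA cells. What part the markers and these left-out cells take in the α-, δ- and non-β endocrine values was not tested. Gadd45b itself was at 71.0 to 149 CPM in the cytokine-exposed β-cells and Btg1 at 49.1 to 111 CPM.

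**Figure D3:**
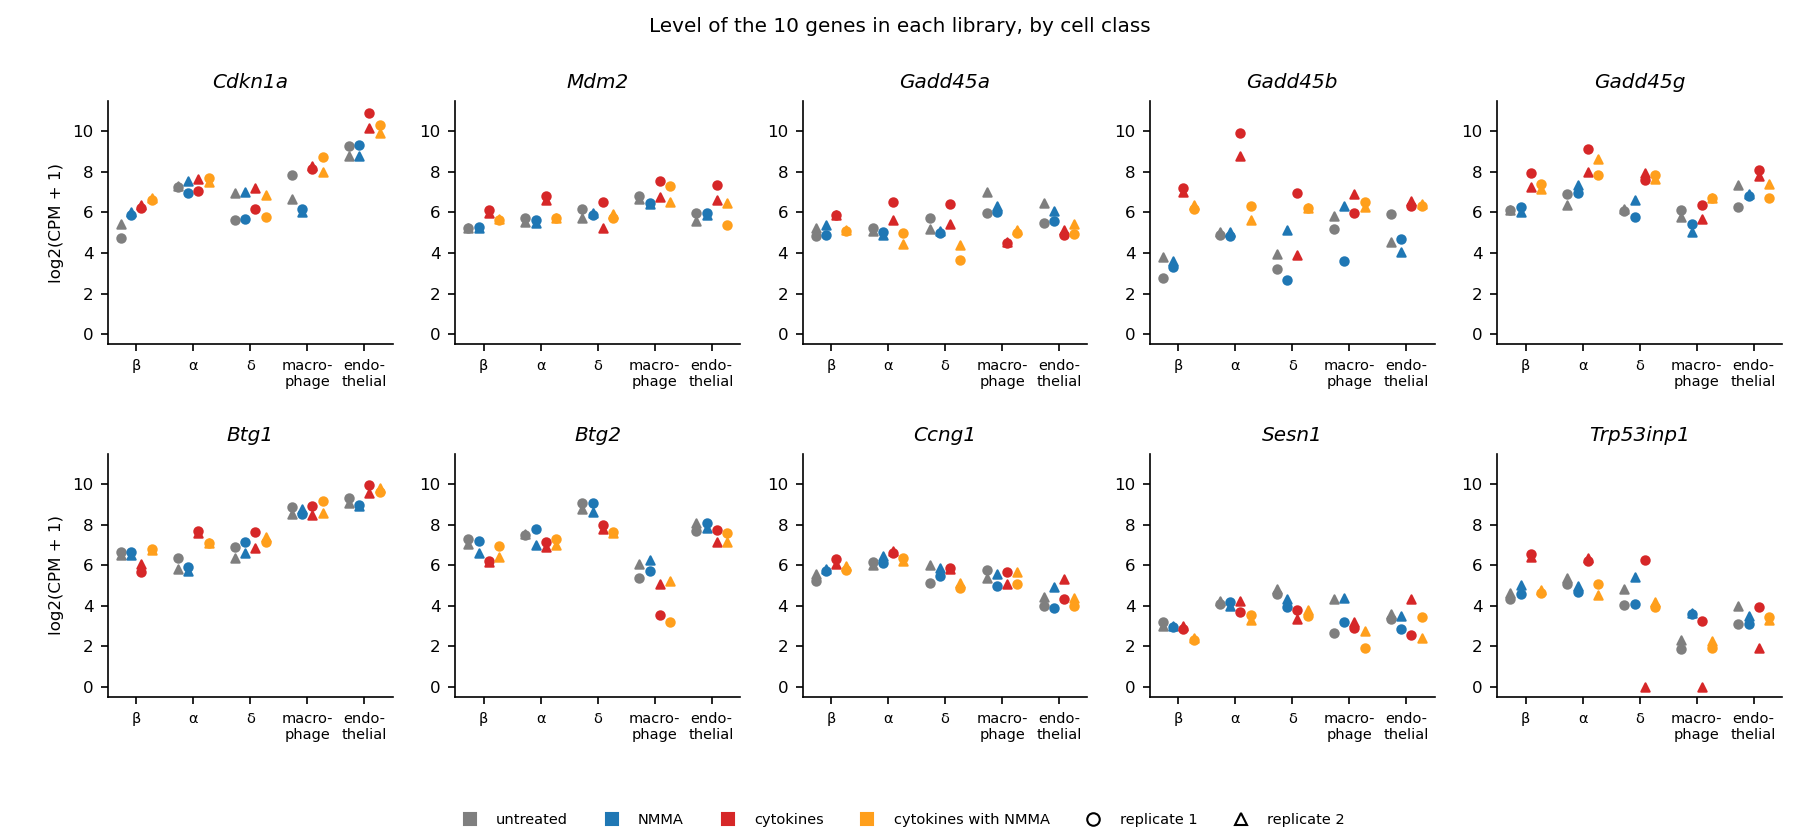
Level of the 10 genes in each library, with log2(CPM + 1) on the vertical axis and the cell class on the horizontal axis. Colours give the conditions, circles replicate 1 and triangles replicate 2. Gadd45b spans the widest range in β- and α-cells, and Sesn1 stays low in every class.

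NMMA added to cytokines asks which of these levels depend on nitric oxide synthase. In β-cells 5 of the 10 genes differed between cytokines and cytokines with NMMA, where 19.2% of 12766 genes did (8.93% higher and 10.3% lower). Trp53inp1, Gadd45a, Mdm2 and Sesn1 were higher without NMMA and Btg1 was lower. The median log2 change was 0.38 over the 10 genes and −0.01 over all genes. Trp53inp1 was at 92.7 and 85.0 CPM with cytokines and at 23.7 and 26.3 CPM with cytokines and NMMA, and the latter pair lay near the untreated 18.98 and 23.5 CPM. Its log2 change was 1.83 ± 0.18 (adjusted p = 0.0016, edgeR, as for all adjusted p given here). Btg1 was at 49.1 and 66.1 CPM with cytokines and at 111 and 109 CPM with cytokines and NMMA, above both untreated libraries. It fell by 0.93 ± 0.16 on the log2 scale without NMMA. Btg1 is counted among the 5, but it was selected on its movement in these cytokine libraries, so its value is a description.

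Gadd45a was at 58.3 and 57.2 CPM with cytokines and at 32.4 and 33.9 CPM with NMMA as well, within the untreated range (0.80 ± 0.19, adjusted p = 0.020). Mdm2 dropped to 48.8 and 49.9 CPM with NMMA from 69.2 and 61.2 CPM, and these stayed above both untreated libraries (0.40 ± 0.12, adjusted p = 0.040). Sesn1 was at 3.99 and 4.41 CPM with cytokines and NMMA, the lowest of its levels in β-cells, against 6.26 and 7.07 CPM with cytokines alone (0.67 ± 0.18, adjusted p = 0.031). Gadd45b was at 149 and 125 against 71.0 and 81.7 CPM, a log2 difference of 0.84 ± 0.33 that did not pass the test (adjusted p = 0.12). Gadd45g libraries overlapped (0.36 ± 0.21, adjusted p = 0.27), and Cdkn1a was at a lower level without NMMA, by −0.38 ± 0.20 (adjusted p = 0.22).

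The 2 replicates are pools of mice divided over the conditions, and their files also differ in Cell Ranger version. With the replicate as a block, called the pool below, 9 of the 10 genes passed. Of all 12766 genes this fit called 2618 higher and 2591 lower, against 1140 and 1314 without the block. The block added Cdkn1a (−0.39, adjusted p = 0.016), Btg2 (−0.49, adjusted p = 0.0027), Ccng1 (0.32, adjusted p = 0.033) and Gadd45g (0.34, adjusted p = 0.043), with 6 genes higher and 3 lower. Leaving out a library gave between 1 and 5 genes. Over the 8 such fits the log2 difference of Trp53inp1 lay between 1.77 and 1.92, and that of Btg1 between −1.15 and −0.73. Without cytokines replicate 1 a single gene passed, without either library of cytokines with NMMA 2 passed, and without NMMA replicate 1 it was 3. Mdm2 lost its call without any library but cytokines replicate 2 (highest adjusted p = 0.21), Gadd45a without any library of the 2 conditions (at most 0.092), and Sesn1 without those or NMMA replicate 1 (at most 0.15). On scaling to total UMIs in place of TMM, the median over all genes moved to −0.22 in this comparison, the genes called split into 390 higher and 2294 lower in place of 1140 and 1314, and 3 of the 10 genes passed. Markers of α-cells summed to 4371 CPM in β-cells of cytokines replicate 2 and to 1506 CPM in cytokines with NMMA replicate 2, against 370 to 1107 CPM in the other 6 libraries. Without the 754 β-cells of clusters led by heat-shock genes (5.16 to 25.2% of the β-cells of a library) 5 genes passed, Sesn1 no longer among them (adjusted p = 0.087).

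Cytokines with NMMA against untreated gives the change under cytokines while nitric oxide synthase was inhibited. The conditions differ in NMMA too, so the contrast also carries what NMMA does on its own. In β-cells 5 of the 10 genes differed, where 22.7% of all genes did (12.9% higher and 9.83% lower). Gadd45b, Cdkn1a, Gadd45g and Mdm2 rose and Sesn1 fell, with a median log2 change of 0.35 over the 10 genes and −0.0045 over all. Gadd45b rose from 5.71 and 13.0 CPM to 71.0 and 81.7 CPM (3.06 ± 0.36, adjusted p = 0.0011). Cdkn1a rose from 26.1 and 42.1 CPM to 97.2 and 105 CPM, its highest level in β-cells (1.57 ± 0.21, adjusted p = 0.00081). With NMMA alone Cdkn1a was at 57.7 and 64.1 CPM. Both libraries with cytokines and NMMA lay above all 6 others for Cdkn1a, and above the 4 libraries without cytokines for Gadd45b.

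Gadd45g rose to 167 and 141 CPM from 68.6 and 68.4 CPM (1.17 ± 0.22, adjusted p = 0.0048). Mdm2 rose by less, from 35.9 and 36.1 to 48.8 and 49.9 CPM (0.45 ± 0.12, adjusted p = 0.021). Sesn1 fell from 8.19 and 6.99 to 3.99 and 4.41 CPM (−0.86 ± 0.18, adjusted p = 0.0077), and its libraries did not overlap. Trp53inp1 (0.24 ± 0.18, adjusted p = 0.40) and Gadd45a (0.06 ± 0.19, adjusted p = 0.88) did not pass the test. The change of Btg1, 0.21 ± 0.16, is a description. The block on the pool added Btg2 (−0.51, adjusted p = 0.0019) and Ccng1 (0.47, adjusted p = 0.0035), which made 7. Over all genes it called 2825 higher and 2405 lower, against 1649 and 1255 without the block. Leaving out a library gave 3 to 5 genes, with 3 without cytokines with NMMA replicate 1 or without untreated replicate 1. Mdm2 lost its call without any library of the 2 conditions (at most 0.13) and Sesn1 without either of those named (0.065 and 0.077).

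Without a block, NMMA alone gave no call among the 10 genes in β-cells. None passed edgeR's test at the threshold, nor did any of the 12766 genes (0%), while 1 of the 10 and 919 of all genes had an unadjusted p under 0.05. DESeq2 called 0 of the 10 and 9 of all. The single gene was Cdkn1a, at 57.7 and 64.1 CPM with NMMA and 26.1 and 42.1 CPM untreated, both libraries above both (0.84 ± 0.21, adjusted p = 0.52). With the pool as a block it passed (0.87, adjusted p = 0.0025), as 1 of 207 genes called higher over all, while 248 were called lower. The other 9 of the 10 genes lay within −0.24 and 0.36 on the log2 scale without the block. In α-, δ- and non-β endocrine cells NMMA alone gave 0 of 10 genes and 0% of all in each, with 0 of the 10 at an unadjusted p under 0.05, 338, 174 and 310 of all genes at that limit, and 0 genes by DESeq2.

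**Figure D4:**
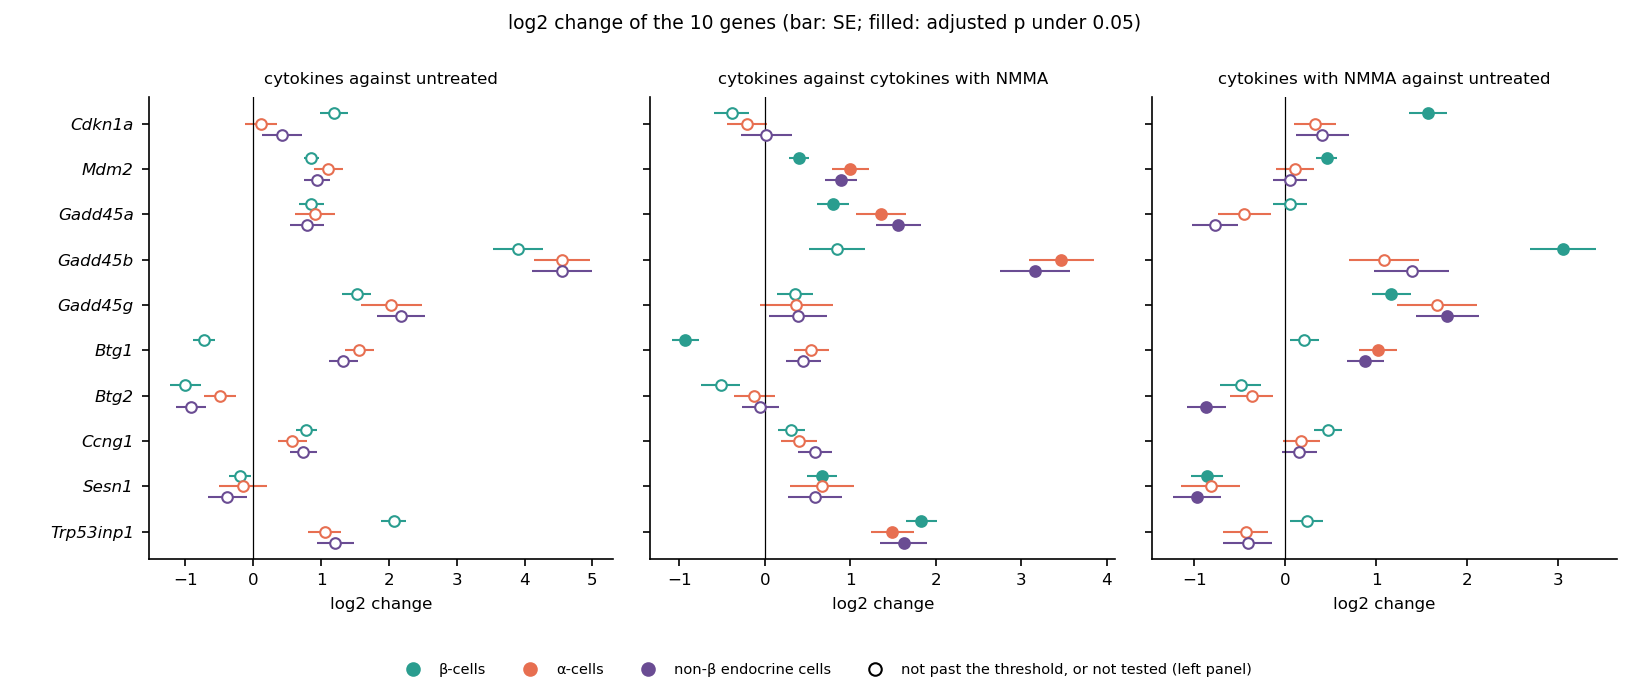
log2 change of the 10 genes in β-, α- and non-β endocrine cells for 3 contrasts, with the change on the horizontal axis, its SE as a bar, and filled points where the adjusted p is under 0.05. The left panel is a description without tests, and so are the Btg1 points of the other panels, filled or not. Btg1 of β-cells lies left of 0 in the first 2 panels and that of α-cells right of it, and in the left panel Gadd45b stands farthest to the right in each class.

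In α-cells 4 of the 10 genes were higher with cytokines than with cytokines and NMMA, where 10.5% of 9679 genes differed (5.52% higher and 5.03% lower). They were Gadd45b, Trp53inp1, Gadd45a and Mdm2. Gadd45b was at 975 and 439 CPM with cytokines and at 78.5 and 48.5 CPM with NMMA as well (3.47 ± 0.38, adjusted p = 0.00074). Trp53inp1 was at 73.7 and 81.3 against 33.4 and 22.1 CPM (1.49 ± 0.25, adjusted p = 0.0012). Mdm2 was at 111 and 97.4 against 51.2 and 52.2 CPM (1.002 ± 0.21, adjusted p = 0.0060), and Gadd45a at 89.1 and 48.2 against 30.6 and 20.6 CPM (1.36 ± 0.29, adjusted p = 0.0071). The 2 conditions did not overlap for any of these. Against untreated, Trp53inp1 (−0.44 ± 0.25, adjusted p = 0.39), Gadd45a (−0.45 ± 0.29, adjusted p = 0.46) and Mdm2 (0.10 ± 0.21, adjusted p = 0.87) did not pass with cytokines and NMMA. Btg1 was at 204 and 193 against 136 and 136 CPM, with the same sign as these 4 genes and not that of β-cells. Its log2 difference was 0.54 ± 0.21, and 0.55 with the block. Both are descriptions, since Btg1 was selected on its movement in these cytokine libraries. Gadd45a lost its call without cytokines replicate 1 (0.093) or cytokines with NMMA replicate 2 (0.075), and Mdm2 reached 0.050 without cytokines with NMMA replicate 1. On scaling to total UMIs the median over all genes was −0.41 here, with 234 higher and 1605 lower calls in place of 534 and 487.

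Between cytokines with NMMA and untreated α-cells, Btg1 was the 1 gene of the 10 that passed, where 8.08% of genes did (5.89% higher and 2.19% lower). It rose from 79.98 and 54.99 CPM to 136 and 136 CPM (1.02 ± 0.21). Btg1 was selected on a contrast with these untreated libraries, so its value is a description. With the block Gadd45b passed too (1.01, adjusted p = 0.021), and 882 genes were called higher and 433 lower over all. On leaving out a library, Btg1 was no longer counted without untreated replicate 2 (0.77), and 3 genes passed without either cytokine library. Cdkn1a, at 207 and 179 CPM against 153 and 155 CPM untreated, did not pass (0.33 ± 0.23, adjusted p = 0.52). Total UMI scaling moved the split of all calls here from 570 higher and 212 lower to 492 and 297.

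The δ-cells of each cytokine library were 11, and their sums hold 0 to 52 UMIs of a gene. No gene of the 10 passed between cytokines and cytokines with NMMA in edgeR, where 0.702% of 8690 did. There 1 of the 10 and 1065 of all had an unadjusted p under 0.05, and DESeq2 called 0 of the 10, with 17 genes higher and 28 lower over all. With the block Gadd45a passed (1.99, adjusted p = 0.013), at 83.5 and 41.8 against 11.4 and 19.98 CPM. That fit called 96 genes higher and 203 lower over all. Trp53inp1 was at 77.05 CPM in cytokines replicate 1 and had 0 UMIs in replicate 2, where 3 UMIs would be 13.9 CPM. Between cytokines with NMMA and untreated, 3 of the 10 passed against 7.05% of all (5.24% higher and 1.82% lower). Gadd45g rose from 66.6 and 71.6 to 232 and 198 CPM (1.64 ± 0.27, adjusted p = 0.00056). Btg2 fell from 530.1 and 431 to 198 and 193 CPM (−1.30 ± 0.25, adjusted p = 0.0022), and Gadd45a from 52.1 and 34.9987 to 11.4 and 19.98 CPM (−1.53 ± 0.39, adjusted p = 0.021). Gadd45a lost its call without untreated replicate 1 (0.36) or cytokines with NMMA replicate 1 (0.29), and Btg2 without untreated replicate 1 (0.059) or cytokines with NMMA replicate 2 (0.052). Without untreated replicate 1 a single gene of the 10 passed. In the δ-cell sums, PP markers went from 99198 and 123956 CPM untreated to 46545 and 65013 CPM with cytokines and NMMA, and α-cell markers from 10330 and 35882 to 6270 and 12492 CPM, and their part in these values was not tested. Total UMI scaling moved the split of all calls between cytokines and cytokines with NMMA from 13 higher and 48 lower to 14 and 18.

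The class of all non-β endocrine cells changed in make-up between conditions. Of its cells, 11 of 62 and 11 of 84 were δ-cells with cytokines, against 58 of 164 and 36 of 131 with cytokines and NMMA, and PP-cells were 45 and 38 untreated but 6 and 5 with cytokines and NMMA. Markers of δ-cells summed to 9032 and 7109 CPM with cytokines and to 15373 and 12845 CPM with cytokines and NMMA. From untreated to cytokines with NMMA, PP markers went from 129726 and 114331 to 45621 and 83635 CPM and β-cell markers from 17668 and 17794 to 36432 and 52241 CPM. The part of these shifts in the values of this class was not tested. With all these cells together, the same 4 genes as in α-cells were higher with cytokines than with cytokines and NMMA, where 10.3% of 11007 genes differed (5.06% higher and 5.21% lower). Gadd45b was at 777 and 362 against 73.1 and 53.7 CPM (3.16 ± 0.41, adjusted p = 0.0046) and Gadd45a at 84.3 and 46.8 against 22.7 and 20.1 CPM (1.56 ± 0.26, adjusted p = 0.0018). Trp53inp1 (1.62 ± 0.28, adjusted p = 0.0025) and Mdm2 (0.89 ± 0.19, adjusted p = 0.0078) moved alike, though Mdm2 missed the threshold without either library of cytokines with NMMA (0.079 and 0.051). The block made 6, with Ccng1 and Btg1, the latter a description. Over all genes it called 1039 higher and 1098 lower. Against untreated, 4 of the 10 passed with cytokines and NMMA, where 10.5% of all did (7.2% higher and 3.3% lower). Gadd45g (1.78 ± 0.35, adjusted p = 0.011) and Btg1 (0.88 ± 0.21) rose, and Btg2 (−0.87 ± 0.21, adjusted p = 0.012) and Sesn1 (−0.97 ± 0.26, adjusted p = 0.022) fell. The Btg1 value is a description, since Btg1 was selected on a contrast with these untreated libraries. With the block Gadd45g was lost (adjusted p = 0.13) and Cdkn1a and Gadd45a were added, and 1270 genes were called higher and 766 lower over all. Leaving out a library gave 1 to 6, with 1 without either untreated library or without cytokines with NMMA replicate 2, and 2 without cytokines with NMMA replicate 1. Btg1 was no longer counted without untreated replicate 2 or cytokines with NMMA replicate 2. Its log2 change over the 8 such fits lay between 0.62 and 1.20. Sesn1 was lost without any library of these conditions, Btg2 without any of them but untreated replicate 2, and Gadd45g without either untreated library. Total UMI scaling turned 557 higher and 574 lower calls between cytokines and cytokines with NMMA into 221 and 1679, with a median over all genes of −0.38.

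Whether β-cells and non-β endocrine cells changed differently was tested on the difference itself. For cytokines against cytokines with NMMA, Btg1 was the 1 gene of the 10 past the threshold, where 1.57% of 12955 were. It was selected on its opposite movement in these classes under cytokines, and the same cytokine libraries enter here, so its value is a description with no test. Btg1 fell in β-cells, while its change in the other endocrine cells was 0.45 ± 0.21. The difference between these changes, β-cells minus the others, was −1.41 ± 0.19. Gadd45b had a larger difference with a larger error (−2.26 ± 0.39, adjusted p = 0.057). For cytokines with NMMA against untreated, Cdkn1a passed, where 1.2% of all did: its log2 change in β-cells was higher by 1.14 ± 0.19 (adjusted p = 0.00088), and by 1.07 to 1.21 over 12 alternatives, all called. In levels, Cdkn1a in non-β endocrine cells was at 93.2 and 136 CPM untreated and 146 and 158 CPM with cytokines and NMMA, while β-cells began at 26.1 and 42.1 CPM. With NMMA alone, β-cells were at 57.7 and 64.1 CPM. The part of NMMA itself, and of the changed make-up of the non-β class, in this difference was not tested. The difference of Btg1 in this contrast, −0.72 ± 0.19, is a description.

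Against macrophages the difference in change was tested for cytokines with NMMA against untreated, where 3.63% of 12810 genes passed and the median of all genes was 0.26. Of the 10 genes, 2 passed. Gadd45b rose by more in β-cells, by 2.17 ± 0.40 on the log2 scale (adjusted p = 8.7e-06). For Gadd45a the difference, β-cells minus macrophages, was 1.58 ± 0.41 (adjusted p = 0.0053), with a change of 0.06 ± 0.19 (adjusted p = 0.88) in β-cells and a fall in macrophages (−1.57 ± 0.37, adjusted p = 0.018). Gadd45b kept its call in all 12 alternatives (1.94 to 2.42), and Gadd45a lost it without either library of cytokines with NMMA or without untreated replicate 2. Against endothelial cells, where 3.02% of 13265 passed, Gadd45b again changed by more in β-cells (1.95 ± 0.38, adjusted p = 5.9e-05). That value was 0.61 (adjusted p = 1.0) without untreated replicate 1 and 3.20 without untreated replicate 2. Total UMI scaling moved the split of all genes from 260 higher and 141 lower to 513 and 86 in this comparison, and from 87 and 116 to 237 and 47 for Btg1's contrast, and 69 and 86 to 74 and 61 for that of Cdkn1a.

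In macrophages, the resident phagocytes of the islet, 8 of the 10 genes had enough UMIs to be tested, and Sesn1 and Trp53inp1 did not. Gadd45a fell with cytokines, the 1 gene of 8 that passed where 4.52% of 5159 did (3.72% higher and 0.795% lower). Its level was 61.4 and 127 CPM untreated and 21.5 and 22.1 CPM with cytokines (−2.16 ± 0.40, adjusted p = 0.0051). With cytokines and NMMA it was at 30.5 and 34.6 CPM, again the 1 gene that passed against untreated (6.36% of all, −1.57 ± 0.37, adjusted p = 0.018), but DESeq2 called 0 there. Both cytokine conditions lay below all 4 libraries without cytokines. The first call was lost without untreated replicate 2 (−1.48, adjusted p = 0.13), and 2 genes passed without untreated replicate 1. The second was lost without untreated replicate 2 (0.39) or either library of cytokines with NMMA (0.13 and 0.10), and without untreated replicate 1 there were 2 genes. Markers of β-cells summed to 18543 to 55057 CPM in macrophages without cytokines and to 2280 to 6747 CPM with them, and their part in these values was not tested.

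Cdkn1a in macrophages was at 227 and 98.7 CPM untreated, 285 and 312 CPM with cytokines and 427 and 250.1 CPM with cytokines and NMMA, so the cytokine libraries lay above the others. It did not pass without a block (0.91 ± 0.37, adjusted p = 0.25, and 1.08 ± 0.37, adjusted p = 0.12) and did with it (0.98, adjusted p = 0.022, and 1.11, adjusted p = 0.0070). Over all genes the block called 312 higher and 149 lower with cytokines, and 412 and 221 with cytokines and NMMA. Btg1, at 362 to 572 CPM in all 8 libraries, overlapped between conditions. Between cytokines and cytokines with NMMA none of the 8 passed in edgeR (0.116% of all), 0 of the 8 and 335 of all genes had an unadjusted p under 0.05, and DESeq2 called 0 of the 8 and 3 of all. NMMA alone gave 0 of 8 (0%), with 1 of the 8 and 144 genes at an unadjusted p under 0.05 and 0 genes by DESeq2.

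Endothelial cells line the capillaries of the islet. There 2 of 8 tested genes rose with cytokines, where 6.36% of 7505 genes differed (4.62% higher and 1.73% lower). Cdkn1a rose from 625 and 433 CPM to 1898 and 1157 CPM (1.53 ± 0.29, adjusted p = 0.0033), with no overlap. Mdm2 rose from 61.7 and 46.6 to 159 and 97.8 CPM (1.22 ± 0.35, adjusted p = 0.045). With the block on the pool 6 of 8 passed, 5 higher and 1 lower: Gadd45a fell (−1.11, adjusted p = 0.050), and Gadd45b, Gadd45g and Btg1 were added among the higher. Of all 7505 genes the block called 523 higher and 258 lower, against 347 and 130 without it. Btg1 was at 638 and 534 CPM untreated and 1004 and 749 CPM with cytokines, higher in both. Mdm2 lost its call without either untreated library, without cytokines replicate 1 or without either NMMA library (0.059 to 0.30), and a single gene passed without cytokines replicate 1 or either NMMA library.

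With cytokines and NMMA, Cdkn1a in endothelial cells was at 1276 and 948 CPM, the 1 gene of 8 to differ from untreated (6.64% of all, 1.07 ± 0.29, adjusted p = 0.035). The block added Gadd45b (1.15, adjusted p = 0.030), and over all genes it called 514 higher and 247 lower. Cdkn1a lost its call without cytokines with NMMA replicate 1 (0.19) or untreated replicate 2 (0.24), and 2 genes passed without untreated replicate 1. Macrophage markers summed to 1121 CPM in endothelial cells of cytokines with NMMA replicate 1, with all 10 detected, and to 1.46 to 9.86 CPM in the other 7 libraries. Between cytokines and cytokines with NMMA 0 of 8 passed in edgeR (0% of all), though 2 of the 8 and 365 genes had an unadjusted p under 0.05, and DESeq2 called 0 of the 8 and 3 of all. NMMA alone gave 0 of 8 (0%), 0 of the 8 and 149 genes at an unadjusted p under 0.05, and 0 genes by DESeq2. Total UMI scaling moved the median over all genes to −0.21 and −0.26 in the 2 contrasts with untreated, and the split of calls to 262 higher with 198 lower and 290 with 233 from 347 higher with 130 lower and 377 with 121.

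The share of cells with at least 1 UMI was counted after each β-cell was thinned to 9500 UMIs, which 5829 of 6280 cells reached. Gadd45b was found in 4.19% of untreated β-cells in replicate 1 (95% Clopper-Pearson interval 3.25 to 5.31%) and 9.09% in replicate 2 (6.76 to 11.9%). With cytokines it was found in 52.9% (49.9 to 55.9%) and 55.6% (51.04 to 60.1%), and with cytokines and NMMA in 39.4% (35.5 to 43.3%) and 39.1% (34.0 to 44.3%). The shares with cytokines, with cytokines and NMMA, and untreated did not overlap. Without thinning the shares were 7.89 and 18.1% untreated, 76.5 and 71.8% with cytokines and 61.3 and 53.4% with NMMA as well. The intervals cover counting error only. Median depth of β-cells was 20547 to 30038 UMIs per library, and no class is known to lack these genes, so no background share can be set beside these.

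Btg1 was found in 58.4% (55.9 to 60.9%) and 53.4% (48.98 to 57.8%) of thinned untreated β-cells, in 29.5% (26.9 to 32.3%) and 37.8% (33.4 to 42.3%) with cytokines and in 61.0% (57.0 to 64.8%) and 54.9% (49.7 to 60.1%) with cytokines and NMMA. Unthinned, these were 80.6 and 75.6%, 50.1 and 62.2%, and 87.4 and 78.5%. The cytokine libraries were the lowest both ways. Trp53inp1 was found in 17.1% (15.3 to 19.1%) and 20.5% (17.1 to 24.2%) untreated, 46.8% (43.8 to 49.7%) and 42.5% (38.1 to 47.1%) with cytokines and 19.7% (16.6 to 23.0%) and 24.6% (20.3 to 29.3%) with cytokines and NMMA. Unthinned, they were 29.5 and 37.6%, 67.5 and 66.7%, and 41.4 and 39.5%. In α-cells thinned to 9000 UMIs (542 of 634 cells), Gadd45b was found in 94.9% (82.7 to 99.4%) and 85.7% (73.8 to 93.6%) of cells with cytokines and in 30.6% (21.0 to 41.5%) and 27.3% (17.7 to 38.6%) with cytokines and NMMA. In that class untreated shares were 16.2% (8.67 to 26.6%) and 20.2% (12.3 to 30.4%), and unthinned these 3 pairs were 93.3 and 88.6%, 41.0 and 42.2%, and 20.9 and 31.9%.

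Other genes of the pathway were read from lists in β-cells. These lists were drawn up with earlier results of these data known, so their counts are descriptions. Of 33 other p53 target genes 30 were tested. Between cytokines and cytokines with NMMA, 2 were higher and 0 lower, where 8.93% of all genes were higher and 10.3% lower. The median log2 change was 0.16 against −0.01 over all genes. The 2 were Plk2 (0.75 ± 0.16, adjusted p = 0.014) and Plk3 (0.67 ± 0.16, adjusted p = 0.022), kinases of the polo-like family that respond to stress. With cytokines and NMMA against untreated 9 rose and 1 fell, where 12.9% of all genes rose and 9.83% fell, with a median of 0.29 against −0.0045. Fas, the death receptor, rose to a mean of 14.5 CPM from 0.19 CPM (6.18 ± 0.32, adjusted p = 3.7e-06), where untreated libraries held 7 and 3 UMIs of it. Apaf1, the scaffold on which caspase-9 is activated, rose by 1.65 ± 0.28 (adjusted p = 0.0032) and Plk2 by 1.19 ± 0.17 (adjusted p = 0.0010), while Ak1, an adenylate kinase, fell (−1.26 ± 0.18, adjusted p = 0.0013). The other 6 that rose were Aen, Bbc3, Gdf15, Perp, Phlda3 and Sulf2. With NMMA alone against untreated, the log2 change was 0.92 ± 0.29 for Apaf1 and 0.80 ± 0.17 for Plk2. It was −0.43 ± 0.59 for Fas and −0.33 ± 0.18 for Ak1, and 0 of the 30 were called.

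Of 15 genes for p53 and its regulators, 2 were higher and 1 lower with cytokines than with cytokines and NMMA, a share near the 19.2% of all genes called there. Mdm4, the relative of Mdm2 that also restrains p53, was higher (0.77 ± 0.18, adjusted p = 0.018), as was the acetyltransferase Kat5 (0.64 ± 0.18, adjusted p = 0.041), and Atm, the kinase that senses DNA breaks, was lower (−0.76 ± 0.18, adjusted p = 0.023). None of the 15 differed between cytokines with NMMA and untreated, where 22.7% of all genes did. Among 13 relatives and partners of the 10 genes, Ccng2 was higher without NMMA (1.81 ± 0.29, adjusted p = 0.0067), and Sesn3 (−0.85 ± 0.12, adjusted p = 0.0037), Trp53inp2 (−0.86 ± 0.13, adjusted p = 0.0043) and Tob1 (−1.03 ± 0.19, adjusted p = 0.0098) were lower. Over all genes 8.93% were higher and 10.3% lower there. With NMMA kept, 1 of the 13 rose and 1 fell against untreated, Ccng2 (0.99 ± 0.29, adjusted p = 0.044) and Sesn3 (−0.38 ± 0.11, adjusted p = 0.043), where 12.9% of all genes rose and 9.83% fell. Between cytokines and cytokines with NMMA, Trp53inp1 and Trp53inp2 thus had opposite signs, as did Sesn1 and Sesn3, while Sesn1 and Sesn3 both fell with cytokines and NMMA against untreated.

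Of 19 CDK inhibitors, cyclins and CDKs 16 were tested. With cytokines 0 were higher and 6 lower than with cytokines and NMMA, where 8.93% of all genes were higher and 10.3% lower, and the median was −0.43 against −0.01 over all genes. They included the D cyclins, Ccnd1 (−1.08 ± 0.13, adjusted p = 0.0027), Ccnd2 (−0.59 ± 0.16, adjusted p = 0.036) and Ccnd3 (−0.57 ± 0.15, adjusted p = 0.031), and 2 genes of CDK inhibitors, Cdkn2c (−0.82 ± 0.21, adjusted p = 0.027) and Cdkn2d, with Ccne1. With cytokines and NMMA against untreated 2 rose (Ccnd3 and Cdk6) and 2 fell (Ccnd1 and E2f1), where 12.9% of all genes rose and 9.83% fell. Of 13 proliferation genes 8 were tested and 0 passed in either contrast, where 19.2% and 22.7% of all genes did. NMMA alone gave 0 calls in any of these lists.

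The genes most like Btg1 and Cdkn1a in their pattern were ranked by Pearson's r over 20 means of a class and condition, among 4309 genes. The points share libraries and 5 classes, so r is a description. Nfe2l2 (0.968), Tpm3 (0.959), Baz1a (0.959), Rbms1 (0.958) and Usp25 (0.953) stood nearest to Btg1. Psmd11 (0.946), Csrp1 (0.924), Furin (0.918), Stau1 (0.915) and Csnk1d (0.911) stood nearest to Cdkn1a.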

How the data were processed

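The deposited values are unnormalized UMI counts by gene and barcode, 1 matrix per library (8 in all), which the authors made with Cell Ranger, and the submitters' processing notes name mm10. The deposited headers give version 3.0.0 for replicate 1 and 6.0.0 for replicate 2. The labels name a v2 kit and the study's methods v3. Barcodes were kept with 200 to 5500 genes (6500 in replicate 2) and at most 10% mitochondrial UMIs. Counts scaled to 10000 per cell, 2000 variable genes without the 10 genes reported, 30 components and 20 neighbours gave 27 Leiden clusters (resolution 1, scanpy 1.11.5), and 1451 cells that scored as non-β endocrine were clustered again. Clusters were named from fixed markers. Doublet scores marked 128 cells (1.18%), removed only as an alternative. Exact intervals (95%) used scipy 1.17.1. Promoters and gene positions came from RefSeq and GENCODE M21.

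UMIs were summed per class and library, at least 10 cells each, and tested with edgeR 4.0.16 in R 4.3.3 (filterByExpr, TMM, robust quasi-likelihood, condition as the single factor, all 8 libraries), with Benjamini-Hochberg adjustment over all genes and a threshold of 0.05. Differences between classes were tested with the library as a block. The procedure was tested on simulated data. DESeq2 1.42.0, total UMI scaling, hormone genes left out of library sizes, no low-count filter, doublets removed, the 10 genes among the variable genes, a block on the replicate, each library left out and, chosen after the clusters were seen, β-cell clusters led by heat-shock genes left out were the alternatives. Replicate numbers pair libraries, since a replicate is 1 pool of mice. Deviations from condition means correlated between libraries of a replicate, at 0.66 to 0.75 (median 0.72) over 6 pairs in β-cells and with a minimum of 0.15 to 0.36 in the other classes. The replicates also differ in Cell Ranger version, so these correlations cannot tell the pool from other differences between replicates. Total counts per library ranged from 26549922 to 50731370. The 10 genes and all lists were chosen with earlier results of these data known. Beside the 10 genes, up to 4 called genes of a list by smallest p are named with values in β-cells (others of a list by name, after their values were seen), and the 5 genes of most like pattern to Btg1 and Cdkn1a.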

Additional observations from a re-analysis of the deposited data

Results flagged for a closer look

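A test of the difference between classes put 5 values past the threshold. For cytokines against cytokines with NMMA, the log2 change of Btg1 in β-cells differed from that in non-β endocrine cells by −1.41, but Btg1 was selected on its opposite movement in these classes under cytokines and the cytokine libraries are the same, so this value is a description. For cytokines with NMMA against untreated, that of Cdkn1a in β-cells exceeded that in non-β endocrine cells by 1.14. This contrast also carries what NMMA does on its own, and the part of NMMA in that value was not tested. In the same contrast, Gadd45b rose by 2.17 more in β-cells than in macrophages and by 1.95 more than in endothelial cells. The change of Gadd45a in β-cells minus that in macrophages was 1.58, with a fall in macrophages and no call in β-cells. Of these, the Gadd45b value against endothelial cells was 0.61 without untreated replicate 1.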

How the results depend on the processing

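With 2 libraries per condition and, in δ-, endothelial and macrophage sums, few UMIs, calls near the threshold turned with single libraries, and a missed call does not show that levels did not differ. No called change reversed its sign. The number of the 10 genes called moved as follows. With the replicate block it was 9 in β-cells for cytokines against cytokines with NMMA (5 without), 1 for NMMA alone in β-cells, 2 in α-cells for cytokines with NMMA against untreated, 1 in δ-cells for cytokines against cytokines with NMMA, 2 and 2 in macrophages for both contrasts with untreated, and 6 and 2 in endothelial cells. In each of these contrasts the block also called more genes over all. It moved no other count of the 10 by over 1.5 times. Below, α-cell values are for cytokines with NMMA against untreated and δ-cell values without a filter for cytokines against cytokines with NMMA. With total UMI scaling it was 3 in β-cells for cytokines against cytokines with NMMA, 2 in α-cells, 1 and 0 in endothelial cells, and 2 each where β-cells were compared with non-β endocrine cells (cytokines against cytokines with NMMA) and with endothelial cells. DESeq2 gave 2 in α-cells, 0 in macrophages with cytokines and NMMA and 1 in endothelial cells with cytokines. With no low-count filter it was 1 for NMMA alone in β-cells, 3 in α-cells, 1 in δ-cells, 2 and 2 in macrophages, 4 in endothelial cells, and 2 and 4 in the comparisons with non-β endocrine cells. The cause was not tested. Leaving out a library gave 1 to 5 and 3 to 5 genes in β-cells, 0 to 3 in α-cells, 1 to 4 in δ-cells and 1 to 6 in non-β endocrine cells for cytokines with NMMA against untreated, 0 to 2 in macrophages for both contrasts with untreated, and 1 to 2 and 0 to 2 in endothelial cells. For the differences between classes it gave 1 to 2 and 1 to 3 against non-β endocrine cells, 1 to 2 against macrophages and 1 to 2 against endothelial cells. For the 31 called changes of single genes and 5 called differences between classes, each counted once per setting, there were 17 losses of a call under other settings and 59 on leaving out a library. A minimum of 5 in place of 10 cells changed nothing, since no sum had fewer than 10.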
